A study of Rattus norvegicus with 18 samples.

Results

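The livers of pups whose dams had received 0.2 mg/kg BDE-47 (G3) were compared with the livers of pups whose dams had received vehicle alone (G1), over all 22523 probes of the Illumina RatRef-12 BeadChip. The arrays were chosen by their sample titles, without use of a measured value, and numbered 12 of the 18 in the series, 6 in G3 and 6 in G1. All dams were timed-pregnant Wistar rats, 3 per group, injected in the caudal vein every 5 days from gestational day (GD) 15 to postnatal day (PND) 20. The 6 injections of a G3 dam carried 0.2 mg/kg body weight of BDE-47 in a mixture of ethanol, Cremophor EL and sterile water, and those of a G1 dam the mixture alone. Another group (G2) at 0.002 mg/kg is used below to place the G3 levels. The pups themselves were not injected. One male and 1 female of each litter were sacrificed on PND 27, 7 days after the dosing of the dams had ended, so that each group holds 3 males (replicates 1 to 3) and 3 females (replicates 4 to 6). Which pups were littermates is not stated in the labels, and p-values over 6 pups per group may be too small because siblings had the same mother.

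BDE-47 is a brominated diphenyl ether flame retardant that dissolves in fat and passes to the young through the placenta and milk. The liver oxidizes such compounds with microsomal cytochromes P450, which draw their electrons from NADPH through the reductase Por, and then attaches glutathione, glucuronic acid or sulfate to the products. The same hepatocytes make most plasma proteins, cholesterol, bile acids and fatty acids and degrade amino acids, and the brightest probes of a liver array belong largely to these tasks.

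Values are log2 expression as deposited, and a difference of 1 on this scale is 2-fold. The medians of the 12 arrays were 7.84 to 7.85, close to the lower end of the scale at 7.61, and 73.6% of the probes had a mean no more than 0.5 from that of the median probe. A gene near 8 is therefore dim here and a gene above 13 is bright. On the first principal component, which took 38.7% of the variance, the G3 pups scored from -14.3 to -6.14 and the controls from 1.65 to 25.2, except for the female control G1 replicate 6, which at -7.34 lay inside the G3 range. Transcripts of muscle were present in G3 replicate 2, a male. Of 19 measured skeletal muscle markers 18 were highest in this pup among the 12, their mean level was 9.83 against 7.84 to 8.03 in the other 11 pups, and the muscle actin Acta1 stood at 13.70, where the remaining pups of G3 had a median of 7.83. The mean level of 8.03 was that of G3 replicate 4, above the controls at 7.84 to 7.89. Acta1 reached 8.91 in another G3 pup, against at most 7.81 in controls. No muscle marker passed the test between the groups, and the part of these transcripts in the results was not tested, so leading counts are also given without G3 replicate 2. Hepatocyte markers were bright in every pup (mean level 13.9 to 14.4 over 8 markers), while the 13 markers of exocrine pancreas had a mean level of 8.00 to 8.05. In whole liver, fewer cells of a type and less RNA per cell cannot be told apart.

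Few genes passed the test at the high dose, and they belong to different tasks of the liver. Expression of Por fell, and with it that of a sterol desaturase, a glycerol phosphate dehydrogenase and a nucleotide receptor, while a taurine transporter, an adenylate kinase and an aminoacylase rose. Calls required a difference of 2-fold or more and an adjusted p no higher than 0.05 (limma, two-sided, Benjamini-Hochberg over all probes), and Por alone met both, 1 of 22523 probes (0.00444%) and 1 of 13337 genes (0.0075%). With no limit on fold, 18 probes met the adjusted p (0.0799%), of which 6 were higher (0.0266%) and 12 lower (0.0533%). Of these 16 carry the symbol of a gene (0.12% of the genes), and 5 rose (0.0375%) and 11 fell (0.0825%). At an unadjusted p of at most 0.05, 8.59% of the probes were higher and 9.98% lower. The threshold falls on a steep part of the ranking, since 104 genes had an adjusted p of at most 0.06 and 571 of at most 0.1, with 290 of the 571 higher and 281 lower in G3. The 18 probes became 1434 without the control G1 replicate 6, 0 when G3 replicate 2 with its muscle transcripts was left out (smallest adjusted p 0.0659 from limma, with 4006 probes at an unadjusted p of 0.05) and 1055 without both. Leaving out G3 replicate 3 also gave 0 (3829 probes at an unadjusted p of 0.05), leaving out G3 replicate 1 gave 1, leaving out G3 replicate 6 gave 32, and each of the other 7 pups gave 6 to 11.

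**Figure D1:**
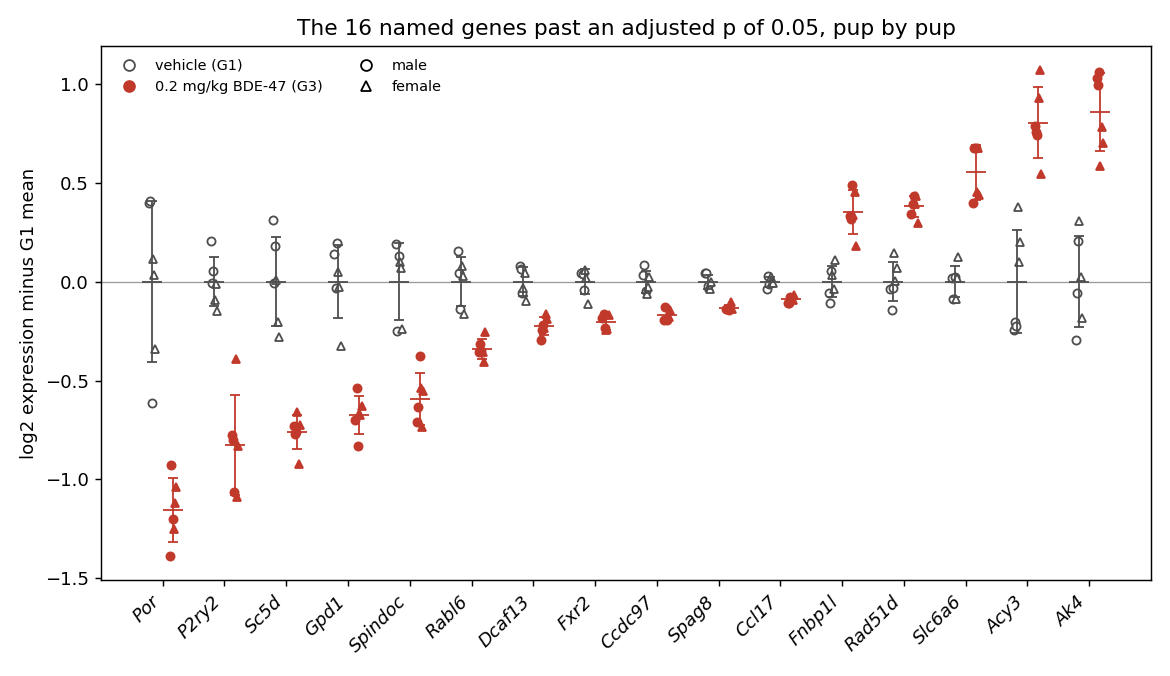
Log2 expression of the 16 named genes past an adjusted p of 0.05 in each of the 12 pups, as the difference from the G1 mean of that gene (vertical axis, log2). Open grey symbols are vehicle pups and filled red symbols pups of the 0.2 mg/kg group, circles are males and triangles females, and bars give the mean and SD of 6 pups. In none of the 16 genes do the groups overlap, and Por has the widest gap between the means, at 1.15.

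Por ran from 11.71 over a median of 12.40 to 12.73 in the 6 controls, and from 10.94 over 11.16 to 11.40 in the 6 pups of G3. Every G3 pup lay below every control, and the control nearest to G3 was the male G1 replicate 3. Por fell by 1.15 (limma, standard error 0.17 and adjusted p = 0.0461), by 1.23 in males and 1.07 in females. Sc5d, the sterol C5-desaturase of the last steps of cholesterol synthesis, is among the brighter genes of the array and fell by 0.76 (standard error 0.09, adjusted p = 0.0219), with controls from 12.9997 over 13.28 to 13.59 and G3 from 12.36 over 12.54 to 12.62. Gpd1, the cytosolic glycerol-3-phosphate dehydrogenase that links glycolysis to triglyceride synthesis, fell by 0.67 (standard error 0.08, adjusted p = 0.0219), with controls from 11.79 to 12.31 and G3 from 11.28 to 11.57. Neither gene's groups overlapped, and the SD of the 6 pups was 0.09 in G3 against 0.22 in G1 for Sc5d and 0.10 against 0.18 for Gpd1. P2ry2, a receptor for extracellular ATP and UTP, ran from 9.94 over 10.07 to 10.29 in G1 and from 8.99 over 9.27 to 9.69 in G3, and fell by 0.83 (standard error 0.11, adjusted p = 0.0307).

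Slc6a6, which carries taurine into cells, rose by 0.55 (standard error 0.06, adjusted p = 0.0219). It is a dim gene, with controls from 7.92 over 8.02 to 8.13 and G3 from 8.40 over 8.57 to 8.68. Ak4, the adenylate kinase of the mitochondrial matrix, rose by 0.86 (standard error 0.12, adjusted p = 0.0359), from 11.45 over 11.73 to 12.05 in controls to 12.33 over 12.63 to 12.80 in G3. Acy3, an aminoacylase that removes acetyl groups from aromatic amino acids and from the mercapturic acids left after glutathione conjugation, rose by 0.80 (standard error 0.12, adjusted p = 0.0477), from 10.03 over 10.21 to 10.64 to 10.81 over 11.04 to 11.34. In each of these 3 genes every pup of G3 lay above every control. Rad51d, a protein of recombinational DNA repair, and Fnbp1l, which bends membranes and recruits actin, rose by 0.38 and 0.35. The other falls were smaller or lay among dim probes: the nuclear protein Spindoc, at 9.35 in controls, fell by 0.59, the Rab-like GTPase Rabl6 by 0.34, the ribosome assembly factor Dcaf13 by 0.22, the RNA-binding protein Fxr2 by 0.21, Ccdc97 by 0.17, Spag8 by 0.13 and the chemokine Ccl17 by 0.09. Ccl17 is a dim probe, with means of 8.00 in G1 and 7.91 in G3 and SDs of 0.024 and 0.016.

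When each pup was left out in turn, Slc6a6 still passed in 10 of 12 fits, Sc5d, Gpd1 and Rad51d in 9, Spag8 in 8, Ak4 in 5, P2ry2 in 4 and the remaining 9 genes, Por among them, in 2 or 3. The highest adjusted p reached by any of the 16 was 0.113. With sex as a covariate 22 probes passed, 13 of them shared with the 18, and the 1 probe called was then Gsta2 and not Por.

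The promoters of 5 genes are shown as examples: Por, Sc5d, P2ry2 and Slc6a6, which passed, and Per2, the clock gene described below, which did not. Ak4, Acy3, Gpd1 and the other genes that passed are not shown. Each run spans 250 bases before to 50 bases after the annotated start in RefSeq (rat build GRCr8), on the strand of the gene. Capitals mark matches, on either strand, to the nuclear receptor half-site AGGTCA, the E-box CACGTG, the D-box TTATGTAA, the antioxidant response element core TGACNNNGC and a sterol response element TCACNCCAC. The windows are chr12:26635760-26636059 for Por, chr8:51538228-51538527 for Sc5d, chr1:164779439-164779738 for P2ry2 and chr9:99496944-99497243 for Per2, all on the minus strand, and chr4:125752252-125752551 on the plus strand for Slc6a6.
Por: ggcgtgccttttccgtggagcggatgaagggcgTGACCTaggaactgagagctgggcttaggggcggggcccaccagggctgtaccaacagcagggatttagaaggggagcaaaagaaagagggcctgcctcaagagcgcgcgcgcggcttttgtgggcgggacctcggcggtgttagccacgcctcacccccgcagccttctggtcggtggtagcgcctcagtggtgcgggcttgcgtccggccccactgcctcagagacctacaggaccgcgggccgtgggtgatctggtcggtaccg
Sc5d: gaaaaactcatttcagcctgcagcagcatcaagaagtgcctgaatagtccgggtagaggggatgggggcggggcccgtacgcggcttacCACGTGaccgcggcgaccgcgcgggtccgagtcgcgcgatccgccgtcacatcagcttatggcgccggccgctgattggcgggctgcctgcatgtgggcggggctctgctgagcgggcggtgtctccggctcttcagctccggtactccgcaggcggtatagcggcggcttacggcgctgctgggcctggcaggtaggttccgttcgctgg
P2ry2: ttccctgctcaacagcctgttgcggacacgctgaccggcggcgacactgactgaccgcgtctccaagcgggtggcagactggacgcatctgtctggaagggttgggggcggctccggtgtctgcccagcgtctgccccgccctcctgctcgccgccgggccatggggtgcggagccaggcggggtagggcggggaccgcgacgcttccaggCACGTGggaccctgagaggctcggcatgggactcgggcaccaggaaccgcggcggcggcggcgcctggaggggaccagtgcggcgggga
Slc6a6: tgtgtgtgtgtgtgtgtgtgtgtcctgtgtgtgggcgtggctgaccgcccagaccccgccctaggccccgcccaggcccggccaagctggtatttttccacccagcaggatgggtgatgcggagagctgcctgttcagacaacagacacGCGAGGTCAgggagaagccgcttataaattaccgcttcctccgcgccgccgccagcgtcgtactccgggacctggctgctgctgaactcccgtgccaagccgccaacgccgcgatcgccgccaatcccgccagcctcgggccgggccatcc
Per2: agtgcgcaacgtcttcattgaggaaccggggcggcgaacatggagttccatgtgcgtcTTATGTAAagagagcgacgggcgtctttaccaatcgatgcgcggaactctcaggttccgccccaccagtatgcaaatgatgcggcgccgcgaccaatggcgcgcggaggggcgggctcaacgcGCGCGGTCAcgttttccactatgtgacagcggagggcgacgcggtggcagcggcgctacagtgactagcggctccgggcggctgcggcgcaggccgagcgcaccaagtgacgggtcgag
The Por window held 1 half-site, and those of Sc5d and P2ry2 held 1 E-box each. In the Slc6a6 window a half-site lay inside a match to the antioxidant element core, and the Per2 window held 1 D-box and, apart from it, 1 match to the antioxidant core. Among all 33469 promoter windows, 16.2% held the half-site, 6.42% the E-box, 0.893% the D-box, 12.1% the antioxidant core and 1.12% the sterol element. Of the 16 genes that passed, 13 had a promoter in the table, and 4 of these held the half-site, 2 the E-box, 2 the antioxidant core and none the D-box or the sterol element. A gene was counted when any of its annotated starts had a match, so these counts and the shares of single windows are not alike. All 5 windows shown hold a match, which not all of the 13 genes do. Such a match describes letters in a window and does not show binding.

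The lower dose places several of these genes. G2 and G3 share the controls, so the 2 sets of differences from G1 are not independent. The G2 mean lay between those of G1 and G3 for 15 of the 16 genes, a description, since the shared controls and the choice of these genes by their G3 difference favour such an order. At G2 the difference from G1 was 3.0% of that at G3 for Slc6a6, 7.3% for P2ry2, 31.8% for Sc5d, 36.1% for Por and 74.5% for Rabl6, and for Dcaf13 it was 101.1%. These are shares of means. For P2ry2, 4 of the 6 pups of G2 lay below every control, while the highest G2 pup, at 10.58, lay above the highest control at 10.29. For Slc6a6, 1 pup of G2 lay above every control. G3 against G2, which leaves out the controls but uses the same G3 pups, was tested over all probes, and 4 probes passed (0.0178%). Of these 3 carry a symbol. Sc5d was lower in G3 than in G2 by 0.52 (limma, adjusted p = 0.000592, standard error 0.04), Por was lower by 0.74 (standard error 0.09, adjusted p = 0.0275) and Slc6a6 was higher by 0.54 (standard error 0.07, adjusted p = 0.0275). Sc5d ran from 12.97 to 13.09 in the 6 pups of G2, and all 6 pups of G3 lay below. With each of the 12 pups left out in turn, Sc5d passed in 12 fits (highest adjusted p 0.00409), Por in 2 and Slc6a6 in 1 (highest adjusted p 0.112 for both), and in 7 of the 12 fits 1 probe passed.

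The 5 brightest genes of the liver differed by little, at levels close to the top of the scale. Albumin (Alb), the brightest of all, ran from 15.44 to 15.70 in G1 and from 15.45 to 15.59 in G3, and Alb, the ethanol-inducible P450 Cyp2e1, the P450 Cyp2c12, transferrin (Tf) and the fibrinogen chain Fgg differed by between -0.04 and 0.03 (adjusted p from 0.694 to 0.857 from limma). The highest value on each of the 12 arrays lay between 15.4 and 15.7, and whether differences are compressed at this end of the scale was not tested. Of the 36 measured plasma protein genes on a list of secreted liver products, with a median level of 15.30, none passed, and 3 had an unadjusted p of at most 0.05 (8.33%), 1 higher and 2 lower. That share lies under the 28.3% (85 of 300) among the 300 brightest genes and the 20.9% among all genes. The smallest p on the list was that of Itih1, a hyaluronan-binding plasma protein, which differed by -0.24 (adjusted p = 0.0818). Among the 300 brightest genes, 235 differed by less than 0.25 (78.3%, against 91.7% of all genes, most of them dim) and none passed the adjusted p. Their median absolute difference was 0.11, above the 0.03 of all genes. Of the 700 next brightest 4 passed, namely Por, Sc5d, Ak4 and Gpd1, and 34.1% had an unadjusted p of at most 0.05. Those 4 are 0.571% of their tier, and below rank 3000, among dim genes, 8 passed (0.0774%), 2 higher (0.0193%) and 6 lower (0.058%). At an unadjusted p of at most 0.05, 17.3% of the 700 genes were higher and 16.9% lower. In the next tier, of 2000 genes, 33.2% reached this p, 15% higher and 18.1% lower, against 17.4% below rank 3000. The 20.9% of all genes is thus a low background for lists of brighter genes. Counts on such lists below are better read against these tiers.

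**Figure D2:**
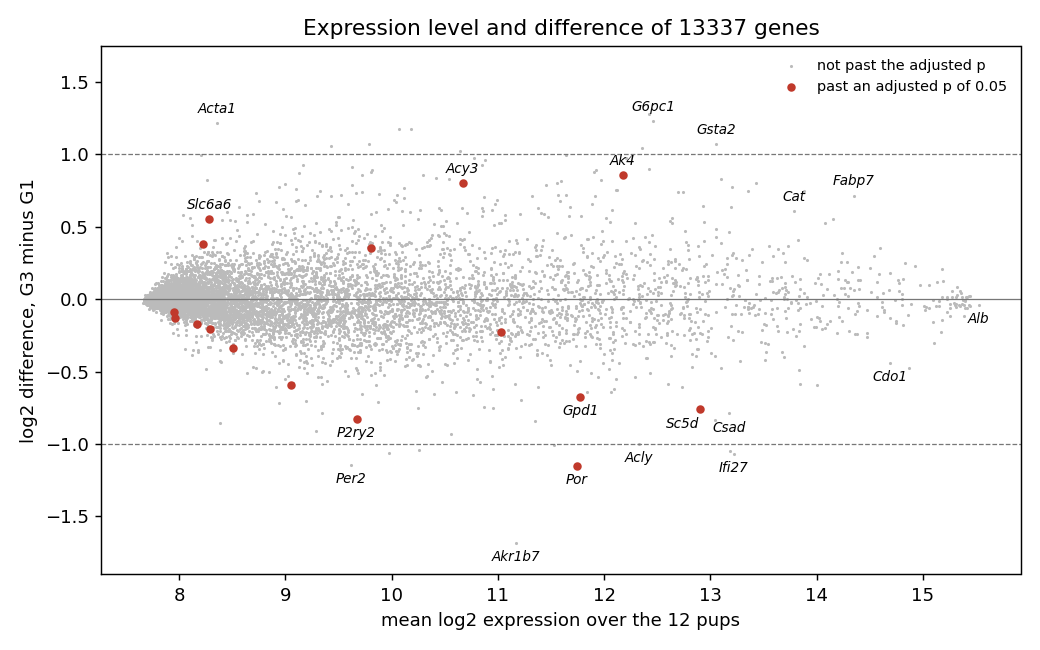
Mean log2 expression over the 12 pups (horizontal axis) and the log2 difference between G3 and G1 (vertical axis) of 13337 genes, 1 probe per gene. Red points passed an adjusted p of 0.05, and dashed lines mark a 2-fold difference. Genes at the right edge, such as Alb, lie close to 0, and Acta1 at the upper left is the muscle actin carried mostly by 1 pup.

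Among the 300 brightest genes the 10 of smallest p were enzymes, 1 lipid carrier, 1 ribosomal and 1 respiratory chain protein, and none passed. Catalase (Cat), which breaks down the hydrogen peroxide made in peroxisomes, ran from 13.04 over 13.59 to 13.73 in G1 and from 14.01 over 14.10 to 14.15 in G3, a difference of 0.61 (limma, standard error 0.10 and adjusted p = 0.0584). The groups did not overlap, and the pups of G3 lay closer together than the controls. Hsd11b1, which regenerates active corticosterone, ran from 14.60 to 14.80 in G1 and from 14.84 to 15.06 in G3, and its difference was 0.25 in males and 0.26 in females (adjusted p = 0.0584). Fabp7, a fatty acid carrier, ran from 13.64 over 13.99 to 14.40 and from 14.44 over 14.67 to 15.03, a difference of 0.72 (adjusted p = 0.0632). Hsd17b4, an enzyme of peroxisomal oxidation, and the ribosomal protein Rpl21 differed by 0.19 and 0.28, and neither gene's groups overlapped. The sulfotransferase Sult2a6, which acts on bile acids and hydroxysteroids, differed by -0.23, the complex I subunit Ndufa11 by -0.21, and Gsta2, Cdo1 and Csad are described with their pathways. Of the 300 genes 12 had groups that did not overlap (4%), against 2.19% of all genes.

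Of the genes of fat oxidation more had a higher mean in G3 than a lower one, and none of them, nor any on the list of fat synthesis, passed. Gpd1, which fell, was placed on the list of gluconeogenesis and fasting. On the list of 21 genes of fatty acid synthesis and esterification, 3 were higher and 5 lower at an unadjusted p of at most 0.05, with a median difference of -0.02, and on the list of 46 genes of mitochondrial and peroxisomal oxidation 13 were higher and 4 lower, with a median of 0.12. The background over all genes was 10% higher and 10.9% lower, with a median of -0.003. In the tier of 2000 genes that holds the median level of the synthesis list, 15% were higher and 18.1% lower. In the tier of 700 genes that holds that of the oxidation list, 17.3% were higher and 16.9% lower. Acly, which makes cytosolic acetyl-CoA from citrate, ran from 12.23 over 12.93 to 13.14 in G1 and from 11.30 over 11.88 to 12.33 in G3, and differed by -1.001 (limma, standard error 0.20 and adjusted p = 0.0584). The highest G3 pup, a female, lay above the lowest control. Pklr, the liver pyruvate kinase, ran from 10.93 to 12.38 and from 10.67 to 11.09 and differed by -0.70 (adjusted p = 0.126), and Thrsp, a thyroid-responsive lipogenic protein, by -0.47 (adjusted p = 0.126). The elongase Elovl5 lay the other way, at 8.60 in G1 and 9.39 in G3. Its highest control, at 9.62, was G1 replicate 6.

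Crot, which attaches carnitine to the shortened fatty acids that leave peroxisomes, ran from 11.18 over 11.41 to 11.82 in G1 and from 11.92 over 12.38 to 12.71 in G3. The groups did not overlap, and the difference was 0.90 (limma, standard error 0.14 and adjusted p = 0.0576). Etfdh, which passes electrons from acyl-CoA dehydrogenases to ubiquinone, differed by 0.42 (adjusted p = 0.0584), and its G3 pups, from 11.65 to 12.05, all lay above the highest control at 11.54. The enoyl-CoA hydratase Echs1 ran from 12.01 to 12.83 and from 12.73 to 13.12 and differed by 0.54 (adjusted p = 0.0744). The P450 enzymes Cyp4a2 and Cyp4a3, which hydroxylate the far end of fatty acids, differed by 1.06 (adjusted p = 0.0584) and 0.98 (adjusted p = 0.0681). Cyp4a3 ran from 11.31 over 11.78 to 12.08 in G1 and from 12.19 over 12.60 to 13.32 in G3, and its difference was 1.57 in males against 0.38 in females. The list of fat oxidation had a median difference of 0.22 in males and -0.01 in females, and the difference between the sexes was not tested for the list. Without G1 replicate 6 and G3 replicate 2 its median was 0.08.

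Sugar metabolism held some of the wider differences, in both directions. G6pc1, the last enzyme of glucose release, ran from 11.45 over 11.79 to 12.25 in G1 and from 12.47 over 13.20 to 13.61 in G3, a difference of 1.23 (limma, standard error 0.23 and adjusted p = 0.0584) with groups that did not overlap. Its G2 pups had a mean of 13.10. Ldha, which interconverts pyruvate and lactate, ran from 12.22 over 12.62 to 13.38 and from 13.22 over 13.53 to 13.86 and differed by 0.83 (adjusted p = 0.0744). The phosphofructokinase Pfkl differed by -0.44 (adjusted p = 0.0672) and the fasting-induced factor Klf15 by -0.45 (adjusted p = 0.0826). On the list of gluconeogenesis and fasting 2 of 23 genes were higher and 4 lower at an unadjusted p of at most 0.05, and on that of glycolysis 3 of 19 were higher and 4 lower. These shares of 26.1% and 36.8% stand beside 34.1% and 33.2% in the tiers that hold the median levels of the lists. Sds, which turns serine into pyruvate, had the wide range of 9.45 to 11.15 in G1 and 8.15 to 10.62 in G3, with a difference of -1.06 (standard error 0.44, adjusted p = 0.224).

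In cholesterol synthesis most members at an unadjusted p of at most 0.05 had a lower mean in G3. Of 20 measured genes 8 were lower and 2 higher, with a median of -0.15, and Sc5d was the 1 that passed. In the tier of 700 genes after the 300 brightest, which holds the list's median level, 16.9% were lower and 17.3% higher. Mvd, the mevalonate diphosphate decarboxylase, ran from 10.79 over 11.20 to 11.67 in G1 and from 10.17 over 10.54 to 10.74 in G3 and differed by -0.74 (limma, standard error 0.15 and adjusted p = 0.0584). Its groups did not overlap. Tm7sf2, a sterol reductase, differed by -0.55 (adjusted p = 0.0797) at its bright probe and by 0.84 (standard error 0.42, adjusted p = 0.315) at a dimmer one, so that its 2 probes disagree. Insig2, which holds the sterol sensor in the endoplasmic reticulum, differed by 1.28 (standard error 0.34, adjusted p = 0.097), from a range of 10.91 to 13.20 in G1 to 12.53 to 13.56 in G3. The highest control was the male G1 replicate 3, and the other 5 controls lay below all of G3. The median of the list was -0.10 in males and -0.16 in females, and -0.14 without G1 replicate 6 and G3 replicate 2.

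On the list of bile acid synthesis and transport 7 of 27 genes were higher and 2 lower at an unadjusted p of at most 0.05. The median was 0.08, and none passed the adjusted p. The share of 33.3% was near the 34.1% of the 700 genes after the 300 brightest, whose range holds the list's median level of 11.32. The share among all genes, most of them dim, was 20.9%. Without G1 replicate 6 and G3 replicate 2 the counts were 3 and 3. Cyp7a1, which sets the rate at which cholesterol enters the classic route to bile acids, ran from 12.67 over 13.94 to 14.41 in G1 and from 11.64 over 12.84 to 13.47 in G3, and differed by -1.05 (limma, standard error 0.40 and adjusted p = 0.195). The groups overlapped, and the difference was -1.76 in the 3 males and -0.34 in the 3 females a group. Cyp27a1, the mitochondrial sterol hydroxylase, differed by -0.26 (adjusted p = 0.126) with groups that did not overlap, and Abcb4, the phospholipid carrier of bile, by 0.50 (adjusted p = 0.109). Akr1d1, the reductase that gives bile acids their bent ring junction, was chosen after its values were seen and differed by 0.74 (adjusted p = 0.161). Aldo-keto reductases and steroid dehydrogenases had 8 of 26 genes higher and 3 lower, with a median of 0.04. Their share of 42.3% stands beside 33.2% in the tier of 2000 genes that holds the list's median level. The largest difference of any named gene was that of Akr1b7, an aldo-keto reductase of isocaproaldehyde and other aldehydes, at -1.68 (standard error 0.45, adjusted p = 0.097). Akr1b7 ran from 10.39 over 12.27 to 12.88 in G1 and from 9.27 over 10.40 to 11.26 in G3, and the lowest control was the female G1 replicate 4.

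**Figure D3:**
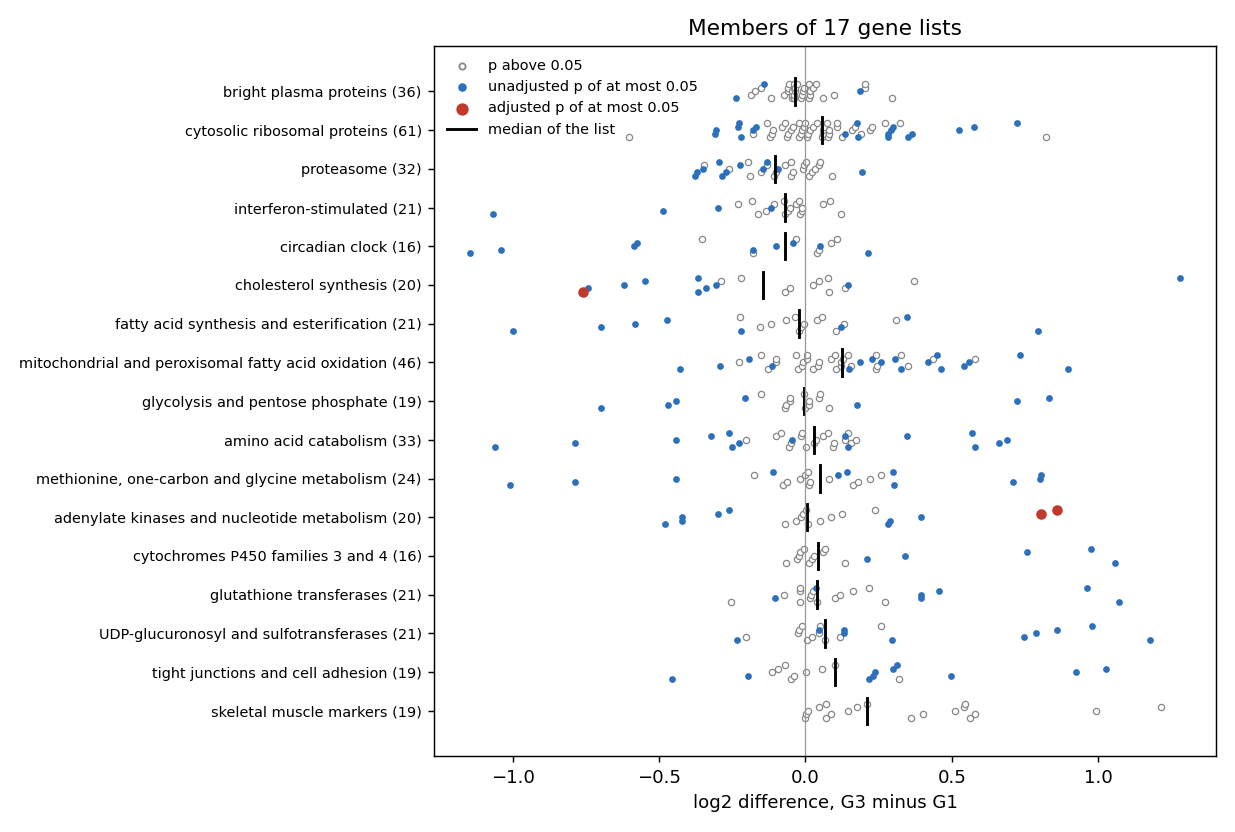
Log2 difference between G3 and G1 (horizontal axis) of the measured members of 17 gene lists, whose number of measured genes stands in brackets. Open points had an unadjusted p above 0.05, blue points one of at most 0.05 and red points an adjusted p of at most 0.05, and black bars are list medians. The medians lie between -0.15 (cholesterol synthesis) and 0.21 (skeletal muscle markers, which are carried mostly by 1 pup), and most lists hold points on both sides of 0.

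Of the genes that make and carry taurine, both bright enzymes on the way from cysteine were lower in G3 without passing, and the transporter passed. Cdo1, which oxidizes cysteine on the way to taurine, ran from 14.66 over 14.95 to 15.03 in G1 and from 14.21 over 14.48 to 14.72 in G3, a difference of -0.44 (limma, standard error 0.09 and adjusted p = 0.0616). Csad, the decarboxylase of the next step, ran from 13.21 over 13.64 to 13.89 and from 12.21 over 12.86 to 13.04, a difference of -0.79 (standard error 0.17, adjusted p = 0.0632). The groups of Csad did not overlap and those of Cdo1 did. The taurine carrier Slc6a6 rose, as given above. Ahcy, which splits S-adenosylhomocysteine, differed by 0.30 (adjusted p = 0.0814), and Gclc, the catalytic subunit of the first step to glutathione, ran from 10.96 to 12.51 and from 11.85 to 12.58 and differed by 0.71 (adjusted p = 0.153). Cth, which releases cysteine from cystathionine and was chosen after its values were seen, differed by 0.80 (standard error 0.23, adjusted p = 0.11). On the list of methionine, one-carbon and glycine metabolism 7 of 24 genes were higher and 4 lower at an unadjusted p of at most 0.05. This share of 45.8% lay above the 34.1% of the tier of 700 genes that holds the list's median level. None passed the adjusted p, and the median was 0.05. Nnmt, the methyltransferase of nicotinamide, had a difference of -1.01 (standard error 0.36, adjusted p = 0.164).

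Amino acid breakdown showed no common direction. Of 33 measured genes 7 were higher and 8 lower at an unadjusted p of at most 0.05, with a median of 0.03. Their share of 45.5% lay above the 34.1% of the tier of 700 genes that holds the list's median level. Kynu, which acts in tryptophan breakdown, ran from 10.74 over 11.65 to 12.01 in G1 and from 12.03 over 12.21 to 12.39 in G3, and differed by 0.66 (limma, standard error 0.18 and adjusted p = 0.0961) with groups that did not overlap. Cps1, the entry enzyme of the urea cycle and 1 of 15 measured genes on the list of nitrogen disposal, had the wide control range of 11.95 to 14.06 and differed by 0.78 (adjusted p = 0.269).

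On the list of purine and nucleotide enzymes Ak4 and Acy3 rose, among 20 measured genes of which 5 were higher and 5 lower at an unadjusted p of at most 0.05 (50%, against 34.1% of the tier of 700 genes that holds the list's median level). The aminoacylases Acy1 and Acy3 are not nucleotide enzymes and were placed on this list beside them. Gda, which deaminates guanine, ran from 12.00 over 12.31 to 12.50 in G1 and from 11.69 over 11.85 to 12.00 in G3, a difference of -0.42 (limma, standard error 0.08 and adjusted p = 0.0584). Adk, the kinase of adenosine, and Uox, the uricase that rodents keep, were chosen after their values were seen and differed by -0.48 (adjusted p = 0.0818) and -0.42 (adjusted p = 0.0984).

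Beside the fall of Por, no P450 gene passed. Among their wider differences were those of Cyp4a2 (1.06), Cyp7a1 (-1.05) and Cyp4a3 (0.98), given above, and that of a dimmer probe of Cyp3a23-3a1, given below. Of 8 measured genes of the electron supply 2 had an unadjusted p of at most 0.05, Por and Cyb5a, the cytochrome b5 that can pass the second electron. Cyb5a is bright, from 14.53 to 15.00 in G1 and 14.92 to 15.14 in G3, and differed by 0.23 (adjusted p = 0.129 from limma). None of the 24 measured P450 genes of family 2 and the 16 of families 3 and 4 passed the adjusted p. Family 2 had 3 higher and 1 lower at an unadjusted p of at most 0.05 with a median of 0.01, and families 3 and 4 had 5 higher and none lower with a median of 0.04, shares of 16.7% and 31.2% against 20.9% of all genes. Neither share exceeded that of the brightness tier that holds the list's median level. That was 34.1% for family 2 (tier of 700 genes) and 33.2% for families 3 and 4 (tier of 2000). Cyp3a18 ran from 10.93 to 12.66 in G1 and 11.78 to 13.10 in G3 and differed by 0.76 (standard error 0.29, adjusted p = 0.198). Cyp3a23-3a1, chosen after its values were seen, has 2 probes, of which the bright one differed by -0.07 and the dimmer one by 1.25 (standard error 0.34, adjusted p = 0.101), from 9.96 to 11.21. Cyp1a1, the classic target of the dioxin receptor, was at 8.54 to 10.64 in G1 and 8.13 to 8.85 in G3, and Cyp1a2 and Cyp1b1 differed by -0.06 and 0.01. At their brightest probes the 6 measured genes of heme synthesis had no member at an unadjusted p of 0.05. A dimmer probe of Fech, an enzyme of heme synthesis, differed by 0.42 (limma, standard error 0.08, adjusted p = 0.0584), from 8.87 in G1 to 9.29 in G3.

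**Figure D4:**
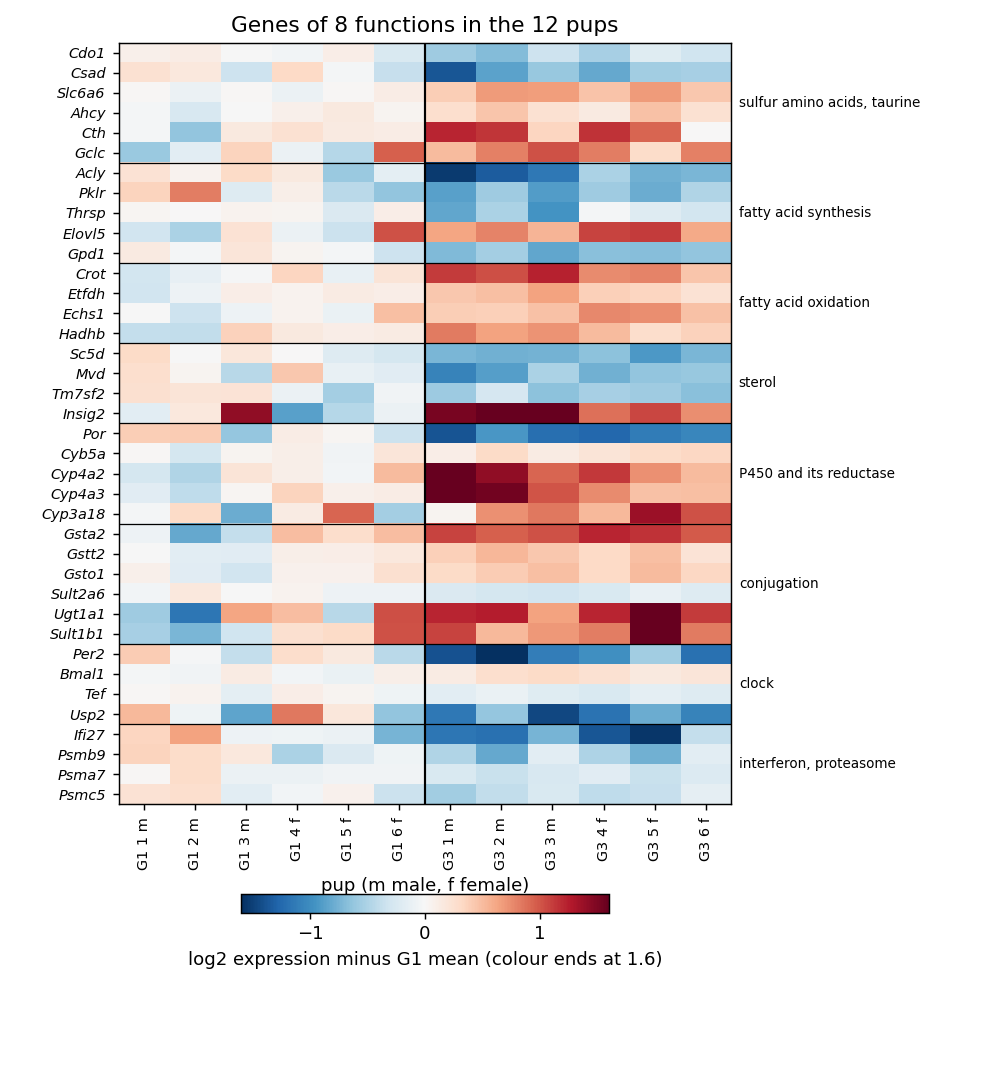
Log2 expression minus the G1 mean for 38 genes (rows), set in 8 functions for display only, in the 12 pups (columns, m male and f female), with red above and blue below the control mean and the colour ending at 1.6. The black vertical line parts the 6 vehicle pups from the 6 pups of the 0.2 mg/kg group. Sc5d, Por, Gpd1 and Slc6a6 keep 1 colour in all 6 pups of G3, as do genes that did not pass, such as Gsta2, Crot and Csad. G1 replicate 6 has the colour of G3 in genes such as Elovl5, Gclc and Sult1b1.

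Most conjugating enzymes had a higher mean in G3, and no member passed the adjusted p. A higher mean was held by 15 of 21 glutathione transferase genes and 16 of 21 genes of glucuronidation and sulfation, beside 6238 of all 13337 genes. Of 21 measured glutathione transferase genes 6 were higher and 1 lower at an unadjusted p of at most 0.05, and of 21 genes of glucuronidation and sulfation 9 were higher and 1 lower, with medians of 0.04 and 0.07 and shares of 33.3% and 47.6% against 20.9% of all genes. Both lists have a median level in the tier of 2000 genes, where the share was 33.2% (15% higher and 18.1% lower). The share of the glutathione transferases was thus that of their tier, and the other share lay above it. Gsta2, an alpha-class glutathione transferase, ran from 11.70 over 12.62 to 13.02 in G1 and from 13.48 over 13.57 to 13.75 in G3, a difference of 1.07 (limma, standard error 0.21 and adjusted p = 0.0584). Its groups did not overlap, and the G2 mean, at 13.49, lay close to that of G3 at 13.59. Gstt2 and Gsto1 differed by 0.39 each (adjusted p = 0.0584 and 0.0645), and neither gene's groups overlapped. Ugt1a1, which conjugates bilirubin, ran from 8.44 over 9.62 to 10.63 and from 10.24 over 10.81 to 11.21 and differed by 1.18 (standard error 0.34, adjusted p = 0.115). The sulfotransferases Sult1c3 and Sult1b1 differed by 0.86 and 0.98 (adjusted p = 0.0921 and 0.135). The highest control was G1 replicate 6 for Ugt1a1 and Sult1b1. Without this control and G3 replicate 2 the counts were 9 higher and 2 lower of the glutathione transferases, 3 of them past the adjusted p, and 8 higher and 2 lower of the others, of which 2 higher and 1 lower passed. Of 17 genes listed as Nrf2 targets 2 were higher at an unadjusted p of at most 0.05 (11.8%, under the 33.2% of the tier of 2000 genes).

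Of 16 measured clock genes 9 had an unadjusted p of at most 0.05 (56.2%, against 20.9% of all genes), 7 lower and 2 higher, with a median of -0.07, and none passed. Per2, a repressor of the clock that follows the time of day and feeding, ran from 9.76 over 10.26 to 10.59 in G1 and from 8.54 over 9.04 to 9.64 in G3, a difference of -1.15 (limma, standard error 0.20 and adjusted p = 0.0584), and its groups did not overlap. Usp2, a deubiquitinase with a strong daily rhythm, ran from 9.94 to 11.62 and from 9.33 to 10.16 and differed by -1.04 (adjusted p = 0.0943). Bmal1, the activator that is high when Per2 is low, differed by 0.21 (adjusted p = 0.0631) on a dim probe, from 7.82 to 8.05 in G1 and from 8.05 to 8.22 in G3. Tef, an output factor of the clock, differed by -0.18 (adjusted p = 0.0775). Of 14 clock genes with a promoter in the table, Per2 held the D-box, and Bhlhe40, Nr1d1 and Tef held the E-box.

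Protein turnover genes were measured with many members. Of 32 proteasome genes 10 were lower and 1 higher at an unadjusted p of at most 0.05. This share of 34.4% was near the 34.1% of the tier of 700 genes that holds the list's median level. In that tier 16.9% were lower and 17.3% higher. A lower mean in G3 was held by 24 of the 32, beside 7099 of all 13337 genes, and the median was -0.10 against -0.003 over all genes. The core subunit Psma7 ran from 12.90 to 13.29 in G1 and from 12.63 to 12.81 in G3, a difference of -0.27 (limma, standard error 0.06 and adjusted p = 0.076) with groups that did not overlap, and the regulatory subunits Psmc5 and Psmd4 differed by -0.35 and -0.37 (adjusted p = 0.121 and 0.126). The median was -0.19 in males and -0.03 in females, and without G1 replicate 6 the count of lower genes was 15. The mean level of the list was 11.39 and 11.54 in the male controls G1 replicates 1 and 2, and 11.20 to 11.25 in the other 4 controls, inside the G3 range of 11.11 to 11.26. Without G1 replicate 2 the median was -0.06. Of 61 cytosolic ribosomal protein genes 12 were higher and 7 lower (31.1%, near the 28.3% of the 300 brightest genes), led by Rpl21, Rpl15 and Rpl27. Their median was 0.06. The elongation factor Eef1b2 differed by 0.75 (adjusted p = 0.0631), from 11.33 to 12.41 in G1 and from 12.38 to 12.76 in G3. Oxidative phosphorylation had 9 of 53 higher and 8 lower (32.1%, near the 34.1% of the tier of 700 genes), with a median of -0.02. The succinate dehydrogenase subunit Sdha differed by 0.43 (adjusted p = 0.0713), and Atp5f1b, the beta subunit of ATP synthase, by -0.30 (adjusted p = 0.0824). In the endoplasmic reticulum the disulfide isomerase Pdia6 differed by 0.43 (adjusted p = 0.0645) and Pdia5 by 1.07 (standard error 0.31, adjusted p = 0.111), while the chaperones Hsp90b1 and Calr differed by -0.37 and -0.26. None of these genes passed.

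Interferon-stimulated genes had a lower mean in G3 in 18 of 21 cases, beside 7099 of all 13337 genes. Of the 21, 4 had an unadjusted p of at most 0.05 (19%, near the 20.9% of all genes). Ifi27, a small mitochondrial protein induced by interferon, is the bright member and ran from 13.02 over 13.68 to 14.40 in G1 and from 12.19 over 12.58 to 13.37 in G3. Its difference was -1.07 (limma, standard error 0.24 and adjusted p = 0.0737), and the lowest control, inside the G3 range, was G1 replicate 6. Psmb9, an inducible proteasome subunit, and the factor Irf7 differed by -0.49 and -0.30. Without G1 replicate 6, 3 genes of this list were higher and 3 lower, and without this control and G3 replicate 2 the counts were 2 and 2. Of 22 acute phase genes 3 were higher and 3 lower (27.3%, near the 28.3% of the 300 brightest genes). Among them was Crp, at 10.62 to 13.17 in G1 and 12.39 to 13.40 in G3, with a difference of 1.04 (standard error 0.39, adjusted p = 0.184). The 37 complement and coagulation genes had 6 higher and 6 lower (32.4%, near the 34.1% of the tier of 700 genes), with C4b at -0.49 and Mbl2 at 0.51.

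Genes of cell contacts had 8 higher and 2 lower of 19 at an unadjusted p of at most 0.05, where 10% of all genes were higher and 10.9% lower, and a median of 0.10. In the tier of 2000 genes that holds the list's median level, 15% were higher and 18.1% lower. Cldn1, a claudin that seals tight junctions, ran from 8.43 over 8.56 to 9.14 in G1 and from 9.21 over 9.69 to 9.83 in G3, a difference of 0.92 (limma, standard error 0.15 and adjusted p = 0.0576) with groups that did not overlap. Rhoa, a GTPase of the actin skeleton, ran from 9.15 to 10.69 and from 10.73 to 11.62 and differed by 1.03 (adjusted p = 0.0788), also without overlap, and the adherens protein Cdh1 differed by -0.46 (adjusted p = 0.097). Of the growth hormone and insulin-like growth factor genes, the insulin receptor Insr differed by 0.17 (adjusted p = 0.0584) on a dim probe, and the binding protein Igfbp2 by 0.86 (standard error 0.30, adjusted p = 0.158), at 1.48 in males and 0.24 in females. The nuclear factor Nfix differed by -0.93 (adjusted p = 0.0645) and the nucleolar protein Npm1 by 0.99 (standard error 0.30, adjusted p = 0.121), whose highest control was G1 replicate 6.

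None of the 12 erythroid markers, the 13 of exocrine pancreas, the 6 of cholangiocytes or the 19 of skeletal muscle had an unadjusted p of at most 0.05. This p was reached by 2 of 8 hepatocyte markers (25%, higher) and 2 of 11 of stellate cells and fibroblasts (18.2%, 1 higher and 1 lower). So did 1 of 5 endothelial (20%, higher), 1 of 9 adipocyte (11.1%, higher) and 1 of 8 intestine and kidney markers (12.5%, lower). The share of all genes was 20.9%. The scavenger receptor Vsig4 of Kupffer cells differed by 0.69 (adjusted p = 0.138 from limma), beside C1qc at -0.19, and 2 of 18 markers of Kupffer cells and leukocytes had an unadjusted p of at most 0.05. Hemoglobin Hba-a1 was bright, from 15.27 to 15.44 in G1 and from 15.22 to 15.42 in G3. Of 10 periportal markers 2 were higher (G6pc1 and Cps1) and 2 lower (Sds and Cdh1), and of 9 pericentral markers 1 was lower, Axin2, at -0.35 (adjusted p = 0.0616). These shares of 40% and 11.1% stand beside 34.1% and 33.2% in the tiers that hold the median levels of the lists.

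The sexes moved the same way in the genes that passed. All 16 had the same sign in males and females and a larger difference in males, against 65% and 58.3% of all genes, a description, since the pooled test chose these genes. Of 1833 genes with a mean above 10, the difference was larger in males for 68.7%. Single pups fall along sex here. The control inside the G3 range of the first principal component, G1 replicate 6, was a female. The controls farthest from G3, G1 replicates 1 and 2 at 18.8 and 25.2, were males, as was G3 replicate 2. The part of these pups in the male share was not tested. A test of the interaction of sex and exposure on these 12 arrays passed no probe (smallest adjusted p 0.0576 from limma), with 866 probes at an unadjusted p of 0.05 (3.84%). In the same 1833 genes the SD of the controls exceeded that of G3 in 72.4%, with median SDs of 0.20 and 0.14. In 293 named and listed genes at an unadjusted p of at most 0.05, the control nearest to G3 was G1 replicate 6 in 149 (50.9%) and G1 replicate 1 in 7 (2.39%).

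**Figure D5:**
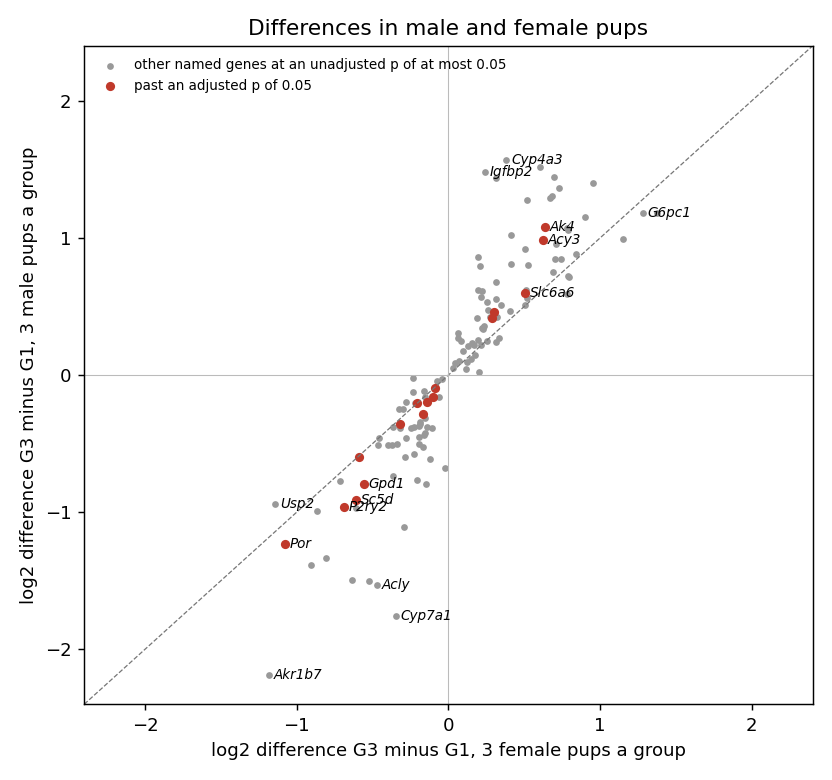
Log2 difference between G3 and G1 in the 3 female pups a group (horizontal axis) and in the 3 male pups a group (vertical axis), for the 135 named genes at an unadjusted p of at most 0.05. Red points passed an adjusted p of 0.05, and the dashed line marks equal differences. In 110 of the 135 genes the difference was larger in males, with Cyp7a1, Cyp4a3 and Igfbp2 far from the line.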

How the data were processed

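Each of 18 pups gave liver RNA for 1 Illumina RatRef-12 array, and 12 of these arrays entered the main comparison. The deposited values are log2 expression of 22523 probes, which the authors computed with the lumi algorithm in FlexArray. The version of lumi and its transformation and normalization settings count as "not given in the sources used here", and neither bead counts nor detection p-values were used. The number of arrays limits the precision.

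The log2 values were compared with the lmFit and eBayes functions of limma 3.58.1, run in R 4.3.3 (two-sided, Benjamini-Hochberg over all probes, sexes pooled). The 2-sample Bayesian t-test of the study's methods was not run. Thresholds were an adjusted p of 0.05 and, for a call, a 2-fold difference. A symbol was held by 13793 probes, 13752 of them with a symbol in RefSeq GRCr8, and 8730 probes had no single symbol. Probes with a symbol stand for 13337 genes, and the brightest probe represents each of the 425 genes with several.

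Named genes are those past the adjusted p, the 10 largest differences each way at an unadjusted p of 0.05, the 10 of smallest p among the 300 brightest, the 5 brightest, up to 3 of smallest p in each of 54 gene lists, markers of a pup that stands apart, and members of small families. The comparison, its members and the lists were chosen with earlier results of these data known. Promoters were matched by symbol to RefSeq for 10993 of the 13337 genes.

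Same-numbered pups of G1 and G3 deviated from their group means with correlations of -0.105 to 0.0777, so the numbers were not taken to pair the pups. Alternatives were a fit of all 3 groups, a variance prior that follows the mean, leaving out dim probes, quantile normalization, median centring, sex as a covariate, the replicate number as a block (a fixed term of the fit), array weights (with statmod 1.5.0), each sex alone, a stricter threshold, and leaving out pups. The tests were tried on simulated data first.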

Additional observations from a re-analysis of the deposited data

Results flagged for a closer look

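In 99 groups of 6 pups the highest and the lowest pup were set against the rest, and in 3 groups 1 pup stood apart by Dixon's criterion, which chance meets in about 1 of 20 groups. The mean of the skeletal muscle markers in G3 was 9.83 in replicate 2, and the remaining pups had a median of 7.85. Cyp2c12, a P450 that is higher in female rats, was 15.67 in G3 replicate 5 against a median of 15.36. Spag8, a sperm-associated antigen that fell in G3, was 7.93 in G3 replicate 5 against a median of 7.89, a small distance on a dim probe.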

How the results depend on the processing

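Against 18 probes, of which 1 was called, limma passed 475 with 17 called when all 3 groups were fitted together, 247 with 13 called when the variance prior followed the mean, 379 with 10 called without dim probes and 465 with 9 called under array weights. It passed 15 after quantile normalization and 18 after median centring, each with 1 called. With the replicate number as a block 0 passed and 0 were called (3810 probes at an unadjusted p of 0.05), and G3 against G2 also gave 0. Males alone gave 1 probe past the adjusted p and 0 called, females alone 0 and 0 (1799 probes at an unadjusted p of 0.05), and an adjusted p of 0.01 left 0 and 0. Leaving out 1 pup gave 0 to 1434 past the adjusted p and 0 to 38 called, the highest of each without G1 replicate 6, and leaving out both G1 replicate 6 and G3 replicate 2 gave 1055 and 31. Probes whose groups did not overlap numbered 440 in all pups, 4288 in males, 3093 in females, 507 to 1360 with 1 pup left out and 1717 without both pups, and smaller groups overlap less often. G3 against G2, with 4 probes, gave 7 under the variance prior, 11 without dim probes and 1 to 6 with 1 pup left out. The interaction with sex gave 1 under the variance prior and 0 to 2 with 1 pup left out. Over the named genes and alternatives, 2746 values kept direction and side of the threshold, 294 newly passed, 170 no longer passed and 8 changed sign. These 8 were all near 0: Alb at 0.000878 after quantile normalization, Cyp2e1 at -0.0123, Tf at -0.00748 and Fgg at 0.018 in females, and, with pups left out, Cyp2e1 (range -0.00671 to 0.0425, the lowest without G1 replicate 2), Tf (-0.000678 to 0.063, the lowest without G1 replicate 5), Fgg (-0.0771 to 0.00133, the highest without G3 replicate 3) and Cyp2c12 (-0.094 to 0.00863, the highest without both pups). Their cause was not tested. Most probes lie near the lower end of the scale, where small differences cannot be told from background, and the brightest lie near its top.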
